A study of Mus musculus with 10 samples.

Results

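The proteasome is the ATP-dependent protease that degrades most short-lived and damaged proteins of a cell after they have been tagged with ubiquitin. Its 20S core is a stack of rings of alpha and beta subunits, and the protease sites lie on the beta subunits beta1, beta2 and beta5. The 19S regulatory particle caps the core, binds the ubiquitin chain, removes it and uses its ATPases to unfold the protein. Interferon-gamma leads cells to build the immunoproteasome instead, in which beta1i, beta2i and beta5i replace the standard catalytic subunits and cut peptides for presentation on MHC class I.

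The genes described here are those whose symbol in the array annotation begins with Psm, a letter from a to g and a number. This rule found 50 genes among the 19933 genes measured, carried by 56 probe sets. By the roles known for their products, 19 encode subunits of the 20S core, 17 subunits of the 19S particle, 7 assembly chaperones and 5 other activators or an inhibitor. The remaining 2 match by symbol only. Psmc3ip encodes a meiotic recombination cofactor and Psme3ip1 a protein that binds the activator PA28 gamma. Psme2b shares its probe set with Psme2 and was not tested by itself.

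Liver RNA was measured in 5 knockout (KO) and 5 wild-type (WT) male mice. KO mice were homozygous null for Nr1d1 (Nr1d1-/-), the gene of the clock repressor Rev-erb alpha, in every cell, and had been crossed to C57Bl/6 for at least 7 generations. WT mice were C57Bl/6 animals from a supplier, so genotype and origin cannot be told apart. All were 10 to 12 weeks old, ate normal chow under a cycle of 12 h light and 12 h dark, and were sampled at ZT10, that is 10 h after lights came on. Each array held RNA of 1 mouse.

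Values are log2 of the deposited intensity, and differences are KO minus WT on that log2 scale. A gene was called changed at an adjusted p under 0.05 in limma, adjusted over all genes measured. The targeted gene did not check the labels. Its probe set differed by 0.14 (SE 0.18, limma adjusted p = 0.803), and the sources used here do not say whether the probes lie in the deleted part. The defining hepatocyte genes were high, with 8 of 10 markers measured and 0 changed. Arrays KO 4, KO 5 and WT 1 had the widest interquartile ranges, at 2.96, 2.99 and 2.98 on the log2 scale, against 2.80 to 2.94 for the others.

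In KO livers the transcripts of 2 of the 3 catalytic immunoproteasome subunits were lower, and those of most standard subunits differed little from WT livers. Of the 50 genes, Psmb8 and Psmb10 fell, Psmd11 rose and 47 did not pass. The 3 calls are 6.00% of the 50 genes, against 5.61% of all genes measured. In the lower direction the 2 calls stand against 2.44% of all genes, and in the higher direction the 1 call stands against 3.17%. These shares were close to those among all genes, and the difference between them was not tested. The median difference of the 50 genes was -0.03, beside 0.01 for all genes. Of the 50 differences 36 were below 0, against 9141 of the 19933 over all genes. These signs are not independent, because the 50 genes were read in the same livers.

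**Figure D1:**
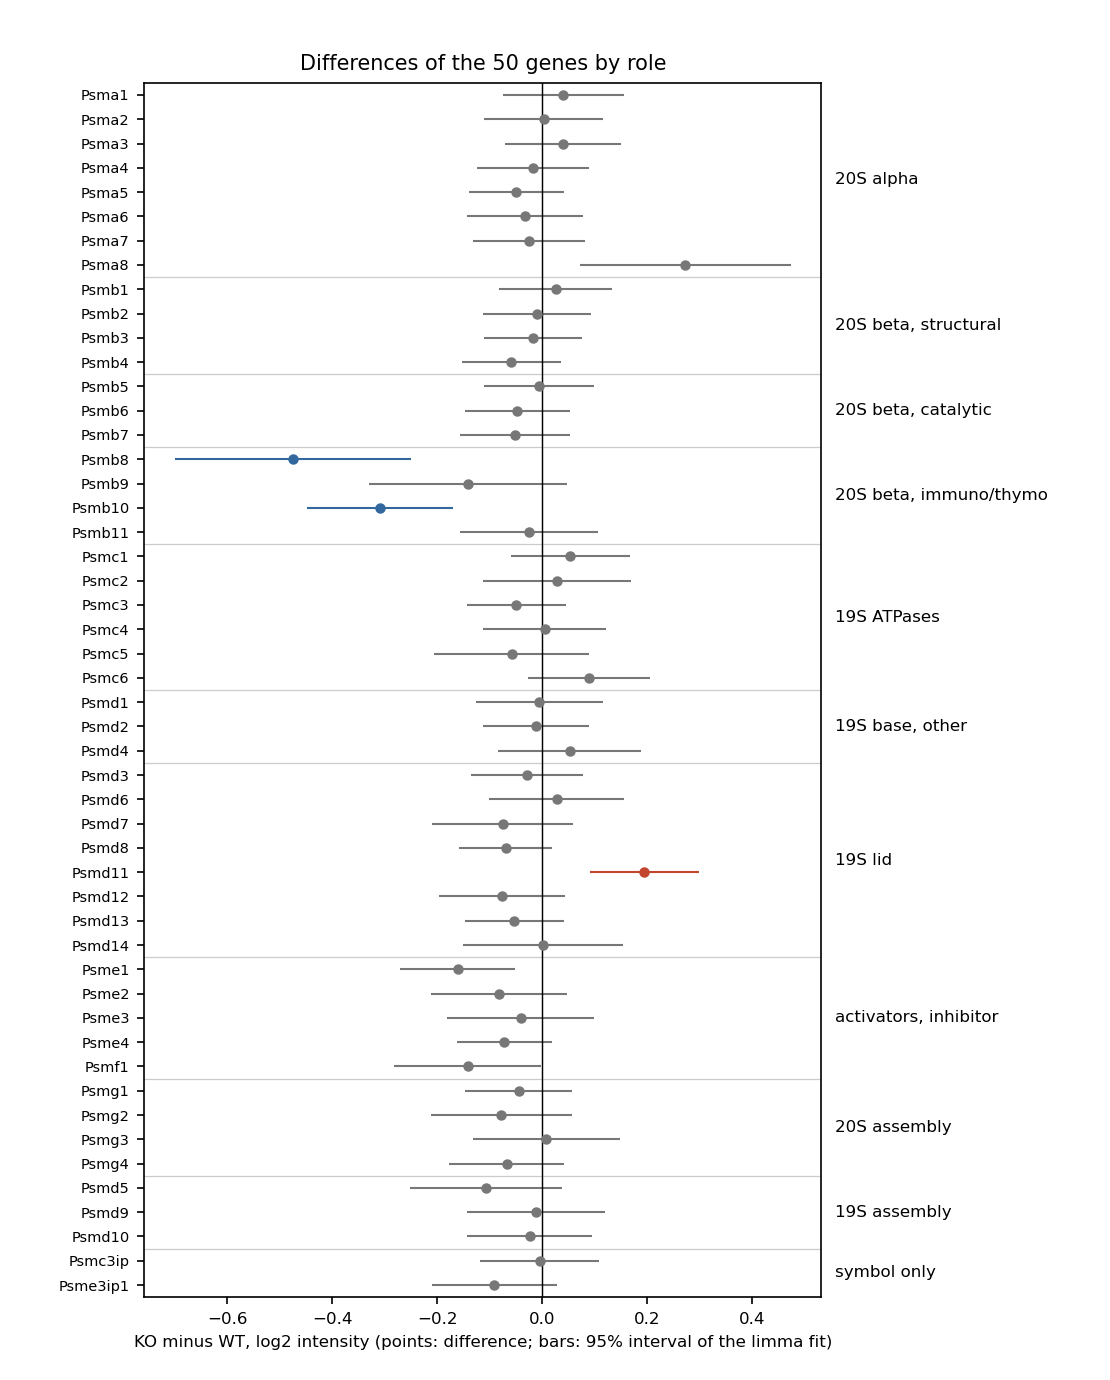
KO minus WT difference in log2 intensity (horizontal axis) for each of the 50 genes, grouped by role, with points for the difference and bars for the 95% interval of the limma fit (n = 5 livers per genotype). Psmb8 at -0.47 and Psmb10 at -0.31 (blue) and Psmd11 at 0.20 (red) passed the test, and most other intervals straddle 0.

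The catalytic subunit of the immunoproteasome with the largest difference was Psmb8, which encodes beta5i, the chymotrypsin-like site. It read 8.17, 8.10, 8.12, 8.17 and 8.24 in KO livers 1 to 5, against 8.36, 8.63, 8.42, 9.01 and 8.75 in WT livers 1 to 5. Every KO liver lay below every WT liver, and the KO livers were close together while the WT livers spread widely. Psmb8 averaged 8.16 ± 0.052 in KO and 8.63 ± 0.26 in WT (SD, n = 5 each). The difference was -0.47 (SE 0.10, 95% interval -0.70 to -0.25, limma adjusted p = 0.0181), or 0.720-fold.

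Psmb10, which encodes beta2i, the trypsin-like site, also fell. Its log2 intensity was 9.09, 9.35, 9.15, 9.30 and 9.22 in KO livers, against 9.41, 9.49, 9.48, 9.64 and 9.64 in WT livers. The genotypes did not overlap, although KO 2 and WT 1 lay only a little apart. The difference was -0.31 (SE 0.064, 95% interval -0.45 to -0.17, limma adjusted p = 0.0139), or 0.807-fold. Genes whose KO livers all lay below all WT livers made up 3.02% of all genes, and Psmb8 and Psmb10 were the only ones among the 50.

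Psmb9, which encodes beta1i, did not pass the test. Its values were 8.98, 9.06, 9.10, 8.84 and 8.97 in KO livers, against 9.09, 9.03, 8.97, 9.47 and 9.10 in WT livers. The genotypes overlapped, and WT 4 stood above all the others. The difference of -0.14 (95% interval -0.33 to 0.05, limma adjusted p = 0.473) moved to -0.06 without WT 4. WT 4 also had the highest Psmb8, and it shared the highest Psmb10 with WT 5. Psmb11, the thymus-specific beta5t, was dimmer than the lower quartile on all 10 arrays, at 5.87 in KO and 5.90 in WT livers.

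**Figure D2:**
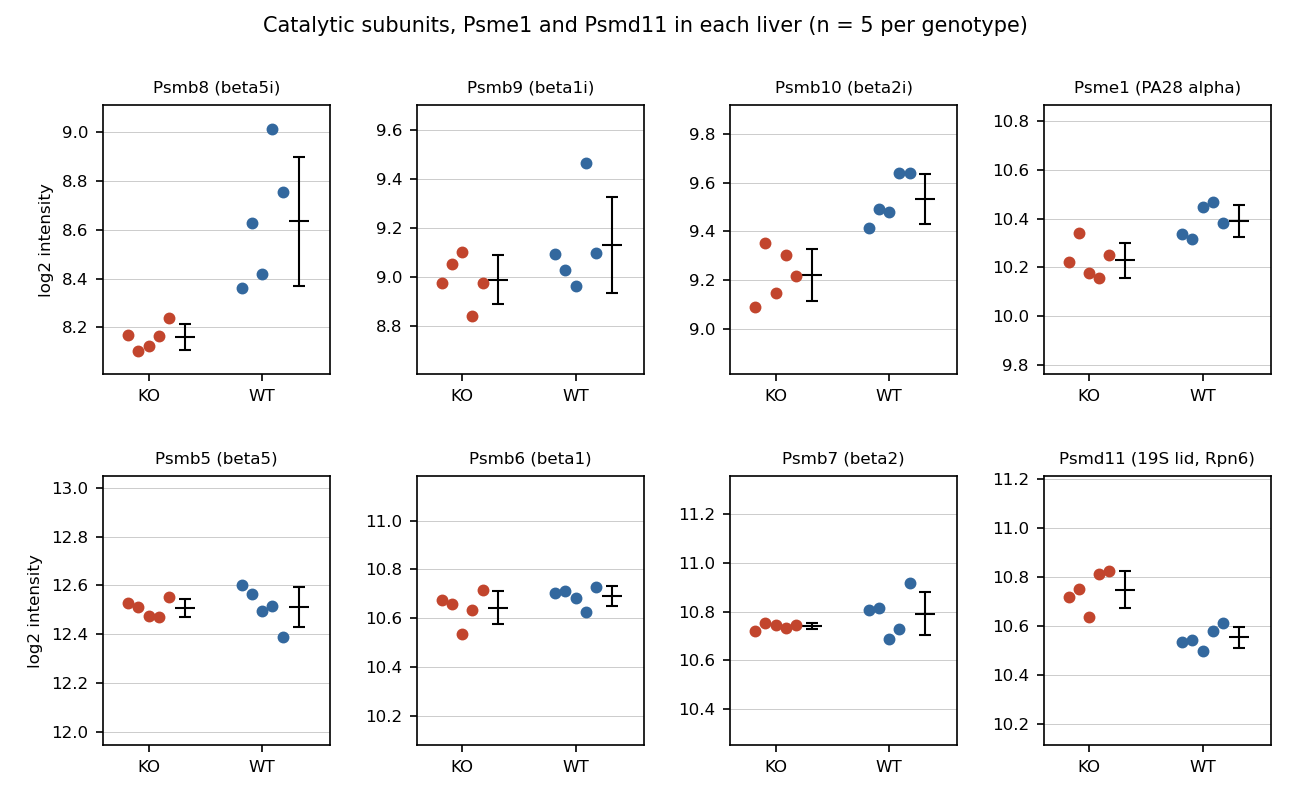
Log2 intensity (vertical axes, each spanning the same width) of the 3 immunoproteasome subunits and Psme1 above, and of the 3 standard catalytic subunits and Psmd11 below, with a point per liver and a bar for mean ± SD (n = 5 per genotype, KO left, WT right). All KO livers lie below all WT livers for Psmb8 and Psmb10 and above them for Psmd11, and the genotypes overlap in the other panels.

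None of the 3 standard catalytic subunits passed the test. Psmb5 (beta5) read 12.53, 12.51, 12.48, 12.47 and 12.55 in KO livers, against 12.60, 12.56, 12.49, 12.51 and 12.39 in WT livers, a difference of -0.01 (95% interval -0.11 to 0.10). Psmb6 (beta1) read 10.67, 10.66, 10.53, 10.63 and 10.72 in KO livers, against 10.71, 10.71, 10.68, 10.62 and 10.73 in WT livers, a difference of -0.05 (95% interval -0.15 to 0.05). For Psmb7 (beta2) the KO livers read 10.72, 10.75, 10.75, 10.73 and 10.74 and the WT livers 10.80, 10.81, 10.69, 10.73 and 10.92, a difference of -0.05 (95% interval -0.16 to 0.05). In all 3 the genotypes overlapped, and the limma adjusted p lay at 0.705 or above.

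Each immunoproteasome subunit takes the place of 1 standard subunit, so the 3 pairs were also set side by side within each array. This was added after the values were seen and restates the differences above, so no test is given. The log2 ratio of Psmb8 to Psmb5 ranged from -4.41 to -4.31 in KO livers and from -4.24 to -3.50 in WT livers, a difference of -0.47. For Psmb10 to Psmb7 the difference was -0.26, and for Psmb9 to Psmb6 it was -0.09. A ratio of intensities from different probes has no meaning as a level, so only its difference between genotypes is read here.

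The call of Psmb8 and that of Psmb10 held in limma without any 1 array (adjusted p up to 0.0479 and 0.0382) and without the 3 arrays of widest interquartile range (0.042 and 0.0445). In a test that takes the spread of each gene alone, neither kept its call (adjusted p = 0.180 for Psmb8 and 0.0615 for Psmb10).

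The stretches of DNA around the transcription start of these genes are shown for the 3 immunoproteasome genes, of which Psmb8 and Psmb10 were called, and for Psmb5, the standard counterpart of Psmb8, which was not. Each runs from 250 bases before to 50 bases after the start in RefSeq (build GRCm38.p6), 5′ to 3′ on the strand of the gene. Capitals mark matches, on either strand, to 5 short words. The words are TGACNNNGC (the antioxidant response element bound by Nfe2l1 and Nfe2l2), the interferon-stimulated response element, TTCNNNGAA (gamma-activated site of STAT proteins), CCAAT and AGGTCA (the core site of many nuclear receptors, Rev-erb alpha among them). No stretch below holds overlapping matches.
Psmb8, chr17:34197945-34198244, plus strand: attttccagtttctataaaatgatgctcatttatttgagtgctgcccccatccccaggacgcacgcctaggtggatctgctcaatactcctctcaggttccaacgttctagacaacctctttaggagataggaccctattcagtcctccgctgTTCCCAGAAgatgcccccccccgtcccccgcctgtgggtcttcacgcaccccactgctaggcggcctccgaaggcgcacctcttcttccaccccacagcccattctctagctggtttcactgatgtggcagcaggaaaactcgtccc
Psmb9, chr17:34187281-34187580, minus strand: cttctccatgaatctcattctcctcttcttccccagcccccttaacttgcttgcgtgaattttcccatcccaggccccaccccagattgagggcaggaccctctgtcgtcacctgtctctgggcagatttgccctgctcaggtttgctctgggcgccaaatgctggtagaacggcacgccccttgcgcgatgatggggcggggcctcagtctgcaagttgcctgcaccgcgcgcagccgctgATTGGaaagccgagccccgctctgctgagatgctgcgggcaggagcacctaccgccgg
Psmb10, chr8:105938343-105938642, minus strand: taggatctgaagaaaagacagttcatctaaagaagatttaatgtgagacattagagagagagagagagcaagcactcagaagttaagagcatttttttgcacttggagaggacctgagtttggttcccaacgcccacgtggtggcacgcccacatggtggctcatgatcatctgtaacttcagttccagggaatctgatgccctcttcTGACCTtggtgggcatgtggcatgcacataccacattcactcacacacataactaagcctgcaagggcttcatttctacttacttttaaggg
Psmb5, chr14:54617946-54618245, minus strand: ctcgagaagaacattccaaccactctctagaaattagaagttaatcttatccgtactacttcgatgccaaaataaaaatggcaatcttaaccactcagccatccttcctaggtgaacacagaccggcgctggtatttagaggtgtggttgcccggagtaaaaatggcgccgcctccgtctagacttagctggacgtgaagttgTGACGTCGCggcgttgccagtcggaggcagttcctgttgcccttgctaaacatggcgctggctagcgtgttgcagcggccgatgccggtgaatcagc

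In Psmb8 the match was TTCNNNGAA, a palindrome, 97 bases before the start. A match to this word was present in 8.30% of all 32851 promoter stretches. Psmb9 had a CCAAT box on the opposite strand 8 bases before the start, a word found in 37.4% of all stretches. Psmb10 had AGGTCA on the opposite strand 42 bases before the start, and that word occurred in 16.3% of all stretches. Psmb5 had TGACNNNGC 47 bases before the start, against 12.4% of all stretches. Of the 42 genes with a stretch in the table, 6 held TGACNNNGC (14.3%), 10 held AGGTCA (23.8%), 3 held TTCNNNGAA (7.14%) and 16 held CCAAT (38.1%). The interferon-stimulated response element was held by 5 (11.9%, against 3.44% of all). They were Psmb3, Psmd4, Psmd9, Psme1 and Psmg4, none of them called. A match is a description of these letters and shows no binding.

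PA28, the activator that caps immunoproteasomes, is made of the products of Psme1 and Psme2. Psme1 read 10.22, 10.34, 10.18, 10.16 and 10.25 in KO livers, against 10.34, 10.31, 10.45, 10.47 and 10.38 in WT livers. Only KO 2 reached into the WT range. The difference of -0.16 (SE 0.051, 95% interval -0.27 to -0.05) did not pass the test (limma adjusted p = 0.0951), and neither did that of Psme2, at -0.08 (adjusted p = 0.577). Psme2 is also uncertain because a second probe set is shared with its copy Psme2b.

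The other regulators of the core did not pass either. Psmf1, which encodes the core inhibitor PI31, read 9.99, 9.79, 9.97, 9.83 and 9.93 in KO livers, against 10.21, 9.98, 9.89, 10.07 and 10.08 in WT livers, a difference of -0.14 (limma adjusted p = 0.281). Psme4, which encodes the nuclear activator PA200, read 11.03, 11.02, 10.95, 11.05 and 11.06 in KO livers, against 11.13, 11.10, 11.06, 11.06 and 11.14 in WT livers, a difference of -0.07 (limma adjusted p = 0.434). The genotypes overlapped for both. Psme3, the gene of the nuclear activator PA28 gamma, differed by -0.04. All 5 differences of this group lay below 0, against 9141 of the 19933 over all genes. The median of the group was -0.08, beside 0.01 for all genes.

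Among the 17 subunits of the 19S particle, Psmd11 rose and 16 did not pass. Psmd11 encodes Rpn6, a lid subunit that holds the 19S particle against the core. It read 10.72, 10.75, 10.64, 10.81 and 10.83 in KO livers, against 10.54, 10.54, 10.50, 10.58 and 10.61 in WT livers. The 5 KO livers all exceeded the 5 WT livers, with KO 3 nearest to them; 3.99% of all genes had KO livers all above WT livers. The difference was 0.20 (SE 0.048, 95% interval 0.09 to 0.30, limma adjusted p = 0.0334), or 1.14-fold. Psmd11 lies on chromosome 11, as does the targeted gene Nr1d1. So do the 19S genes Psmc5, Psmd3 and Psmd12, which did not pass. An effect of DNA linked to Nr1d1 was not tested.

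This call was less stable than those of Psmb8 and Psmb10. It was lost when any 1 of WT 1, WT 2, WT 3, KO 1, KO 2, KO 4 or KO 5 was left out (adjusted p up to 0.0848, differences 0.18 to 0.22 over all 10 arrays left out singly), with arrays centred on their medians (0.0794), and in the test on the spread of the gene alone (0.0697). Without the 3 arrays of widest interquartile range the difference was 0.14 (adjusted p = 0.222). Its promoter stretch, shown because it is the only gene called higher, held none of the 5 words.
Psmd11, chr11:80428365-80428664, plus strand: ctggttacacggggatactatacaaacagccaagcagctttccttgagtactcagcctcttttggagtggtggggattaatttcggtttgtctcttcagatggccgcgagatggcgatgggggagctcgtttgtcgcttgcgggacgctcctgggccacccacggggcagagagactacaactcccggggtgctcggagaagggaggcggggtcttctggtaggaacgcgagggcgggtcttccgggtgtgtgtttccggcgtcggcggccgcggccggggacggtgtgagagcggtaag

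The remaining lid genes lay between -0.08 (Psmd12) and 0.03 (Psmd6). Psmd8, the gene of the lid subunit Rpn12, read 11.60, 11.51, 11.58, 11.56 and 11.61 in KO livers, against 11.61, 11.65, 11.61, 11.69 and 11.66 in WT livers, and its difference of -0.07 did not pass (limma adjusted p = 0.443). Psmd14, which encodes Rpn11, the enzyme that cuts off the ubiquitin chain, differed by 0.002 (95% interval -0.15 to 0.15). In the base, the 6 ATPase genes Psmc1 to Psmc6 differed by -0.06 to 0.09. The highest was Psmc6, at 10.37, 10.45, 10.38, 10.50 and 10.58 in KO livers, against 10.46, 10.35, 10.28, 10.37 and 10.38 in WT livers (limma adjusted p = 0.453). The large scaffold genes Psmd1 and Psmd2 and the ubiquitin receptor gene Psmd4 differed by -0.005, -0.01 and 0.05.

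The alpha ring, which gates the entry to the core, showed differences near 0 for its 7 general genes. Psma1 to Psma7 differed by -0.05 (Psma5) to 0.04 (Psma1), and the structural beta genes Psmb1 to Psmb4 by -0.06 to 0.03. Psma8, the testis-specific alpha subunit, read 5.99, 6.31, 6.24, 6.09 and 5.94 in KO livers, against 5.65, 6.02, 5.83, 5.70 and 6.01 in WT livers. It lay below the lower quartile on 7 of 10 arrays, its genotypes overlapped, and its difference of 0.27 did not pass (limma adjusted p = 0.121). Of the 6 markers of testis, 3 were likewise dimmer than the lower quartile on all arrays and 0 were called.

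Leaving aside Psmd11, Psma8 and the immuno- and thymoproteasome genes, 30 subunits of the 20S and 19S particles remain. Their differences lay between -0.08 and 0.09 with a median of -0.01, beside 0.01 for all genes. For the probe set standing for each gene, all 30 of the 95% intervals stayed within 0.21 of 0 on the log2 scale. A change beyond 1.16-fold in either direction therefore lay outside the interval of each. This bound does not cover the further probe sets of some genes, such as that of Psma5 at -0.14 (SE 0.064). On simulated data the same test recovered 26.2% of differences of 0.25 and 87.5% of differences of 0.5. Those differences were placed in genes drawn from all genes measured. The median SD of all genes was 0.098 in KO and 0.095 in WT livers, against 0.074 and 0.070 for the 50 genes. The rates therefore do not carry over to these 30 subunits, although small shifts may still have gone uncalled.

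The 7 assembly chaperone genes did not pass, with differences of -0.11 to 0.01 and a median of -0.04. Of the 7 differences 6 were below 0, against 9141 of the 19933 over all genes. Psmd5, whose product helps to assemble the 19S base, read 9.95, 10.03, 9.70, 10.06 and 9.89 in KO livers, against 10.10, 10.01, 9.94, 10.03 and 10.07 in WT livers (difference -0.11, limma adjusted p = 0.493). KO 3 was the lowest of all. The other base chaperone genes Psmd9 and Psmd10 differed by -0.01 and -0.02. Those of the core, Psmg1 to Psmg4, differed by -0.08 to 0.01. By group, the medians were -0.02 for the 20S core, -0.005 for the 19S particle and -0.04 for the assembly genes, beside 0.01 for all genes. Of the genes matched by symbol only, Psme3ip1 read 9.59, 9.55, 9.60, 9.50 and 9.62 in KO livers, against 9.83, 9.64, 9.68, 9.56 and 9.60 in WT livers (difference -0.09), and Psmc3ip differed by -0.005.

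**Figure D3:**
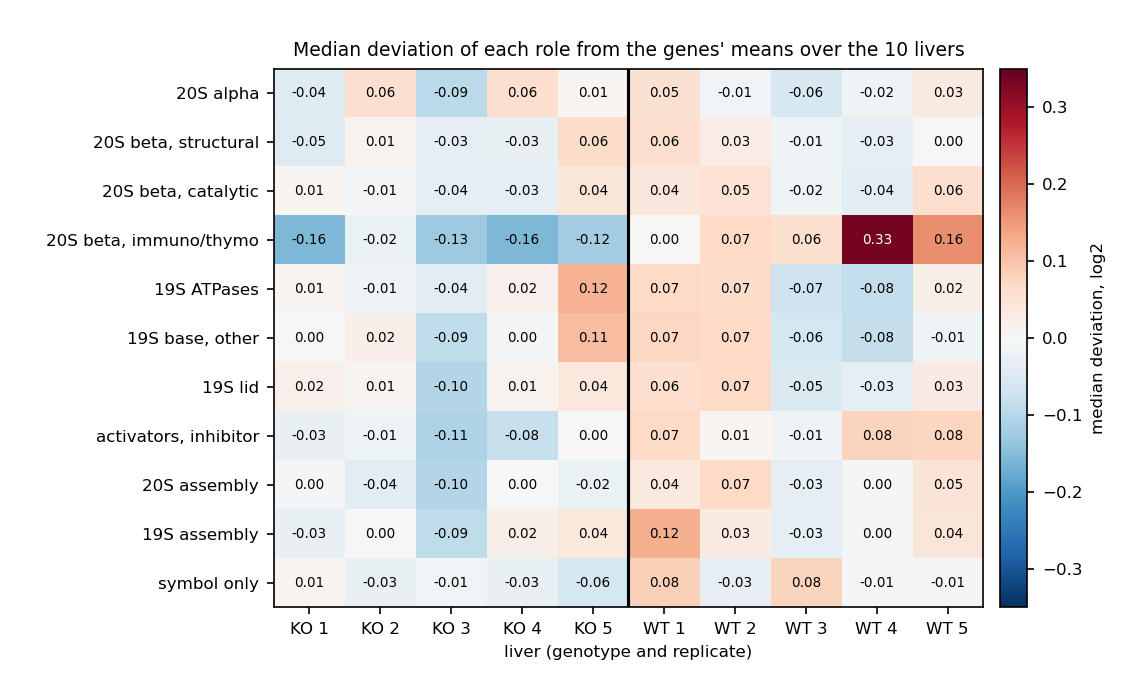
Median deviation of the genes of each role (rows) from their own means over the 10 livers, in log2 units, for each liver (columns, KO left of the line and WT right). The immuno- and thymoproteasome row is below 0 in all KO livers and reaches 0.33 in WT 4. The rows of other activators and inhibitor and of 20S assembly chaperones are also below 0 in all KO livers. They reach 0.08 and 0.07 in WT livers, but in WT 3 they are at -0.01 and -0.03, within the range of the KO livers.

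Standard subunits tended to be high or low together in a given liver, whatever its genotype. Of the 31 standard 20S and 19S subunits, Psmd11 among them, 1 lay above its own mean over the 10 livers in KO 3, 14 in KO 1, 15 in KO 4, 19 in KO 2 and 26 in KO 5. Among WT livers the count was 5 in WT 3, 9 in WT 4, 18 in WT 5, 21 in WT 2 and 30 in WT 1. KO 3 and WT 3, the livers with the fewest, had interquartile ranges of 2.80 and 2.81, and KO 5 and WT 1, with the most, had 2.99 and 2.98. Of the other KO arrays, KO 1 had a range of 2.81 with a count of 14, KO 2 had 2.82 with 19 and KO 4 had 2.96 with 15. Of the other WT arrays, WT 4 had 2.89 with 9, WT 2 had 2.93 with 21 and WT 5 had 2.94 with 18. The part of array spread in these counts was not tested, and no such count was made over all genes. With the interquartile range as a covariate the differences of Psmb8, Psmb10 and Psmd11 were -0.47, -0.30 and 0.21, all called (limma adjusted p = 0.0284, 0.0191 and 0.00884).

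The immunoproteasome serves antigen processing, and Psmb8 and Psmb9 lie next to the peptide transporter genes Tap1 and Tap2 in the MHC region (order of genes in RefSeq, GRCm38.p6). Of 14 listed genes of antigen processing and the interferon-gamma response, 11 were measured and 0 passed. Among all 19933 genes, 3461 had an unadjusted limma p under 0.05, and among these 11 genes 1 did. Tap2 was that gene. It read 8.50, 8.63, 8.71, 8.41 and 8.73 in KO livers, against 8.78, 8.84, 8.77, 8.93 and 8.83 in WT livers, and every KO liver lay below every WT liver. Its difference of -0.23 (SE 0.066) missed the threshold (limma adjusted p = 0.0608). Irf8, an interferon regulatory factor of immune cells, differed by -0.13 (adjusted p = 0.523). Tap1 differed by -0.10 and Irf1, a factor that drives Psmb9 and Tap1, by -0.14 (SE 0.18). The MHC light chain gene B2m differed by 0.01, and Nlrc5 and Erap1 by 0.05 and 0.03. Of the 11 differences, 8 were below 0 and 3 above. The median of the list was -0.09, beside 0.01 for all genes.

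Immune cells carry much of the immunoproteasome of a tissue. Of 13 leukocyte markers 12 were measured and 0 passed. Their summed linear intensity ranged from 3978 to 4626 in KO livers and from 4214 to 4770 in WT livers. Lcp1, the brightest of them at 10.99 in both genotypes, weighed most in that sum and differed by 0.003. Of 11 macrophage and Kupffer cell markers 10 were measured and 0 passed, with sums of 5230 to 7102 in KO livers and 5633 to 8072 in WT livers. The median difference was -0.006 for the leukocyte markers and -0.05 for the macrophage and Kupffer cell markers, beside 0.01 for all genes. Of the 12 leukocyte markers, 7 differed below 0 and 5 above. The general leukocyte marker Ptprc differed by -0.08, and the lymphocyte markers Cd79a, Cd79b and Cd3e by 0.18, 0.11 and 0.04. The lymphocyte markers Cd3g and Cd79a lay below the lower quartile on 8 of 10 arrays each. In whole liver, fewer cells of a type and less RNA per cell cannot be told apart, and the part of immune cells in the results for Psmb8 and Psmb10 was not tested.

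**Figure D4:**
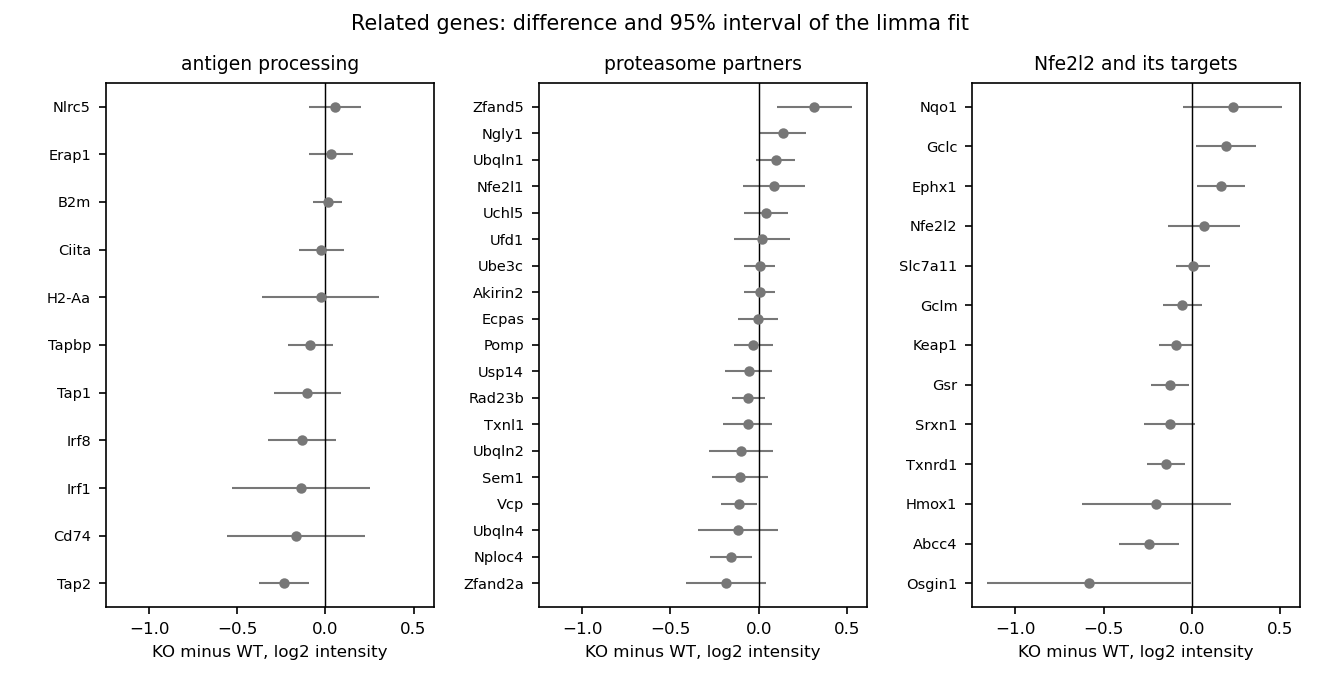
KO minus WT difference in log2 intensity with the 95% interval of the limma fit for related genes in 3 lists (antigen processing, proteasome partners, Nfe2l2 and its targets; n = 5 livers per genotype). No gene of these lists passed the test, and Tap2, at -0.23, is the lowest of the antigen processing genes.

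Partners of the proteasome that carry other symbols did not pass the test. Of 26 listed symbols, some of them older names of the same gene, 19 genes were measured and 0 were called. An unadjusted limma p under 0.05 was found for 4 of the 19, beside 3461 of all 19933 genes. Zfand5, whose product stimulates the 26S proteasome, read 9.62, 9.58, 9.75, 9.81 and 9.79 in KO livers, against 9.29, 9.17, 9.29, 9.77 and 9.43 in WT livers. WT 4 alone reached the KO range, and the difference of 0.32 missed the threshold (limma adjusted p = 0.0917). Nploc4, the gene of a cofactor of the unfoldase p97, differed by -0.16 (adjusted p = 0.136). Pomp, the maturation chaperone of the core, differed by -0.03, and Nfe2l1, the factor that restores proteasome genes after inhibition, by 0.09 (adjusted p = 0.692). Of the 6 listed ubiquitin and activating enzyme genes, the ubiquitin-activating enzyme gene Uba6 alone was measured and differed by -0.08 (adjusted p = 0.821).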

How the data were processed

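The authors deposited a table of normalized intensity values for 27541 probe sets on 10 Affymetrix Mouse Gene 1.0 ST arrays, 1 mouse each. Per the submitters' processing notes, the tools included RMA and Partek; no version is given. The intensity values were on a linear scale (8.93 to 18280), so log2 was taken. How far a probe set stands above background cannot be read from it. Precision is limited by having 10 arrays.

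Probe sets with 1 symbol (21631) were kept, the one of highest mean standing for each gene. No filter on low values was used. The genotypes were compared with limma 3.58.1 in R 4.3.3 (lmFit, eBayes) over 19933 genes, two-sided, without covariates, with Benjamini-Hochberg adjustment. Each p-value rests on the spread among these mice alone. On simulated data for this comparison 4.38% of calls were false. There each gene varied independently and only a small part of the genes was shifted, so this share does not carry over to the calls made here.

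Several probe sets carried 5 of the genes. Those of Psma3 and Psmb3 differed in sign between probe sets, from -0.003 to 0.06 and from -0.02 to 0.02, and those of Psma5 were -0.05 and -0.14. None was called.

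The genes and lists were chosen with earlier results of these data known. Values per liver are given for the 12 genes of smallest p and for Psmb5 to Psmb10, and up to 2 genes of smallest p from each related list. Other genes are named to describe their role. Promoter sequences are from RefSeq (GRCm38.p6), which held 42 of the 50 genes.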

Additional observations from a re-analysis of the deposited data

Results flagged for a closer look

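In groups of 5 livers, 7 of 100 sets of values (50 genes in each genotype) held 1 liver far from the rest, by the ratio of its gap to the range of the group (Dixon). Chance flags about 1 in 20 such sets. In 5 of the 7, KO 3 was the lowest KO liver. It read 10.92 for Psmd14, where the nearest KO liver read 11.16. It read 11.36 for Psmd2, where the nearest read 11.44. For Psmd6 the values were 10.55 and 10.69, for Psmd7 10.37 and 10.55, and for Psme3 10.99 and 11.12. In the sixth, WT 4 was the highest WT liver for Psmb9, at 9.47 against 9.10 for the next. In the seventh, KO 1 was the highest KO liver for Psmb11, at 6.05 against 5.86, a gene dimmer than the lower quartile on all 10 arrays.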

How the results depend on the processing

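Of 20 alternatives to the limma comparison, 10 left out 1 array each. The number of proteasome genes called lower was 2 with any 1 array left out, and 0 in a Welch test per gene, which does not borrow the spread of other genes. The number called higher ranged from 0 to 1 with 1 array left out, and was 0 with arrays centred on their medians, without the 3 arrays of widest interquartile range and in the Welch test. The median difference of the 50 genes stayed between -0.05 and -0.01. Of the 47 genes not called, 15 changed sign in at least 1 alternative and 0 were called in any. A filter to genes above the median level kept 46 of the 50 genes and the same 3 calls. Among the within-array ratios, given without a test, that of Psmb9 to Psmb6 ranged from -0.15 (without KO replicate 3) to 0.0055 (without WT replicate 4). Without the 3 arrays of widest interquartile range the ratios of Psmb8 to Psmb5 and of Psmb10 to Psmb7 differed by -0.59 and -0.32. No paired analysis was possible because the replicate numbers only name the mice. Signal over background is unknown, which limits the reading of dim genes such as Psma8 and Psmb11.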

Other observations

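The antioxidant factor Nfe2l2 and its targets, a group that can also drive proteasome genes, did not pass the test in these livers. All 13 listed genes were measured and 0 were called. An unadjusted limma p under 0.05 was found for 3461 of all 19933 genes and for 6 of the 13. These 6 went both ways. The transporter gene Abcc4, at 7.44, 7.53, 7.58, 7.56 and 7.55 in KO livers and 7.79, 7.56, 7.75, 7.69 and 8.07 in WT livers, differed by -0.24 (limma adjusted p = 0.108). The thioredoxin reductase gene Txnrd1 differed by -0.15 (adjusted p = 0.114), and every KO liver lay below every WT liver. The glutathione synthesis gene Gclc, in the other direction, differed by 0.20 (adjusted p = 0.209). The median of the list was -0.09, beside 0.01 for all genes.

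Spread between livers was smaller for proteasome genes than for genes at large, in a comparison not matched for level. Of the 50 genes 46 lay above the median level of all genes. The median SD over the 50 genes was 0.074 in KO and 0.070 in WT livers (log2 scale, n = 5 each), against 0.098 and 0.095 over all genes. The SD of Psmb8 was 0.052 in KO and 0.26 in WT livers, and the WT SD was the larger in 23 of the 50 genes.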
